A study of Mus musculus with 23 samples.

Results

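The genes followed here in quadriceps muscle salvage, use or clear the coenzyme NAD. They are the nicotinamide riboside kinases Nmrk1 and Nmrk2, Nampt, the adenylyl transferases Nmnat1 and Nmnat3, Nnmt, Nadk and the sirtuins Sirt1 and Sirt3. These 9 of the 55573 gene IDs of the count table were taken by symbol from a list drawn up by function, and all 9 passed the filter on low counts that left 13049 genes to test. The list was chosen by function, but with results of the corticosterone comparisons in these same 23 mice already known. Counts of genes called over the list are therefore a description, to be read against the share of all tested genes that was called, and are not independent evidence.

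All mice were C57Bl6 per the labels and C57BL/6J per the study's methods, which give their age as 8 to 10 weeks. They carried a subcutaneous pellet for 14 days and were fasted for 5 h before they were killed. The corticosterone pellet held 50 mg corticosterone and 50 mg cholesterol, and the vehicle pellet 100 mg cholesterol. There were 6 male vehicle (M VEH), 6 male corticosterone (M CORT), 6 female vehicle (F VEH) and 5 female corticosterone (F CORT) mice, named here by sex and number. Each mouse gave between 20904150 and 21984477 counts on genes. Every group received a pellet with cholesterol and was fasted, so neither has a control here. Whether the sexes were treated, extracted or sequenced together is not given in the sources used here, so a sex difference and such a batch cannot be told apart.

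NAD carries electrons in glycolysis and the mitochondria, and it is also used up by enzymes that split it, among them the sirtuins, which remove acyl groups from proteins. Muscle rebuilds most of its NAD by salvage. Nampt turns nicotinamide into nicotinamide mononucleotide, the riboside kinases make the same product from nicotinamide riboside, and the Nmnat enzymes add the adenylyl group that completes NAD. Nnmt methylates nicotinamide and so takes it out of salvage, and Nadk phosphorylates NAD to NADP. Nmrk2 is known as the kinase enriched in striated muscle, whereas Nmrk1 is found in many tissues.

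The results turn most on the kinase pair, so the stretches that lie just before the annotated exons of Nmrk2 and Nmrk1 are shown to set the promoter of the gene with the largest change beside that of its paralog. Both are RefSeq promoter sequence on GRCm38.p6, Nmrk2 from chr10:81202052-81202287 on the minus strand (236 bases) and Nmrk1 from chr19:18631824-18631949 on the plus strand (126 bases). Capitals mark TATAAA, the TATA box, in Nmrk2 and ATTGG, the reverse complement of the CCAAT box, in Nmrk1.
Nmrk2: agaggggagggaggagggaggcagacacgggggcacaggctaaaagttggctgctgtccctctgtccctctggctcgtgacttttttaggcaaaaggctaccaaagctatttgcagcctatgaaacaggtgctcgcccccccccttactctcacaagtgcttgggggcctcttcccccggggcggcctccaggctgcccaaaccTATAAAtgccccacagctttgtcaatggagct
Nmrk1: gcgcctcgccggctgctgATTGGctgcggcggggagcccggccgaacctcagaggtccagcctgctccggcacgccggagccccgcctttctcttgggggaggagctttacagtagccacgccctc

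The 250 bases before each RefSeq start were searched on both strands in 8 of the 9 genes (11 windows, without Nnmt). TATAAA was found in 1 gene, Nmrk2, at position -46 from the RefSeq start, and stands in 12.4% of 32817 windows of all genes. The printed stretches stop at the annotated exon, upstream of the RefSeq start, so this position does not count from their last base. CCAAT was found in 4 genes (Nmrk1, Nmnat1, Nadk and Sirt3) and stands in 33.8% of all windows. AGAACA, the core of the glucocorticoid receptor element, was in none of the 8 genes and in 16.1% of all windows. GTAAACA, a FoxO site, was in none of the 8 and in 3.16% of all windows. CACGTG, the E-box, was in Nadk and Sirt1 and in 6.02% of all windows. TATAAA and CCAAT were added to the search after the sequences were seen. By window, TATAAA was in 1, CCAAT in 4 and CACGTG in 2 of the 11. These matches describe letters in a short window only.

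Nmrk2 (ENSMUSG00000004939, chr10:81198170-81202051, minus strand, GRCm38) showed the largest change of the 9 genes. In the M VEH mice its level ran from 113 to 294 CPM (counts scaled to the library size) with a median of 236, and in the M CORT mice from 1.81 to 40.2 CPM with a median of 11.7. The male groups did not overlap, and the mean of 217 ± 69.7 CPM (SD, n = 6) under vehicle was 13.7 times that of 15.9 ± 13.7 CPM (SD, n = 6) under corticosterone. Nmrk2 fell by 3.77 on the log2 scale in males (SE 0.62, edgeR quasi-likelihood adjusted p = 6.77e-05), below the vehicle mean in 6 of 6 mice. In bulk muscle, fewer cells of a type and less RNA per cell cannot be told apart.

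In females the same gene varied widely in each group. The F VEH mice ran from 31.6 to 120 CPM with a median of 65.1. The F CORT mice had 10.4 (F2), 31.8 (F4), 8.57 (F6), 83.5 (F8) and 58.3 CPM (F10). F4, F8 and F10 lay inside the vehicle range and F2 and F6 below it, so the female groups overlapped. The log2 fold change was -0.88 (SE 0.59, adjusted p = 0.287), with 4 of 5 mice below the vehicle mean of 71.0 ± 35.9 CPM (SD, n = 6). Over the alternatives it ranged from -1.89 (adjusted p = 0.0146) in limma-voom with quality weights to -0.52 (adjusted p = 0.594) with an adipocyte marker score as a covariate. Leaving out 1 mouse gave from -1.38 without F8 to -0.63 without F6, and none of these passed the threshold.

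The male effect on Nmrk2 exceeded the female effect by -2.89 on the log2 scale (SE 0.82), which missed the threshold of 0.01 in edgeR (adjusted p = 0.0295) and passed it in DESeq2 (adjusted p = 0.00960), which called 6.87% of all tested genes in this comparison. Over the alternatives this adjusted p ranged from 0.00960 to 0.0782. Vehicle males had the higher level at a log2 difference of 1.61 over vehicle females (SE 0.57, adjusted p = 0.166), with 6 of 6 males above the female mean and overlapping ranges. Under corticosterone the order of the means was the other way round, at -1.28 for males over females (SE 0.59, adjusted p = 0.0913).

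Within groups, Nmrk2 spread far more than Nampt. Its highest mouse was 22.2 times its lowest in M CORT, 9.75 times in F CORT, 3.79 times in F VEH and 2.60 times in M VEH. The SD of Nmrk2 was 86.5% of its mean in M CORT, against 7.88% for Nampt in the same mice. The pair of M VEH mice with the least Nmrk2, M3 with 113 CPM and M5 with 153 CPM, also had the most RNA of 7 slow fiber markers in their group, 3873 and 5017 summed CPM against 42.9 to 87.1 in the other vehicle males. In M CORT the slow fiber sums were 2304 in M6, which had 7.30 CPM of Nmrk2, and 1297 in M10, which had the group's highest level. In F VEH the slow fiber sums were 5806 in F3 and 3524 in F5, which had 40.5 and 104 CPM of Nmrk2. F9, with the least Nmrk2 of that group, had the lowest sum, 40.2. In F CORT the sum was 3178 in F2, which had 10.4 CPM of Nmrk2, and 1813 in F8, which had the group's highest level. The part of fiber make-up in the Nmrk2 values was not tested. The male call on Nmrk2 held in all 33 alternatives, with log2 fold changes from -4.30 to -3.53.

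Reads of Nmrk2 share 270 exonic bases with Atcayos, a gene on the opposite strand, and were counted by strand. Atcayos itself ran from 87.2 to 131 CPM in M VEH, 47.9 to 79.5 in M CORT, 71.4 to 106 in F VEH and 26.4 to 48.2 in F CORT. Its levels were thus lower under corticosterone with no overlap in either sex, and its lowest group was F CORT, whereas that of Nmrk2 was M CORT. Atcayos was looked at after the values of Nmrk2 were seen.

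Nmrk1 (ENSMUSG00000037847, chr19:18631950-18652428, plus strand) was low in all 4 groups. Its mean was 5.04 ± 0.714 CPM in M VEH and 4.11 ± 0.518 CPM in M CORT (SD, n = 6 each), with overlapping ranges. The log2 fold change of -0.29 in males (SE 0.10, adjusted p = 0.0305) missed the threshold, though 6 of 6 mice lay below the vehicle mean. In females the means were 4.86 ± 0.382 CPM (SD, n = 6) and 4.31 ± 0.246 CPM (SD, n = 5), a log2 fold change of -0.17 (SE 0.11, adjusted p = 0.256). Without M5 the male value was -0.36 and passed the threshold (adjusted p = 0.00699).

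Per kb of exon, the scale on which genes can be set beside each other, the mean of Nmrk2 was 85.6 times that of Nmrk1 in M VEH and 7.68 times in M CORT. In females the ratio was 29.1 under vehicle and 17.8 under corticosterone.

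**Figure D1:**
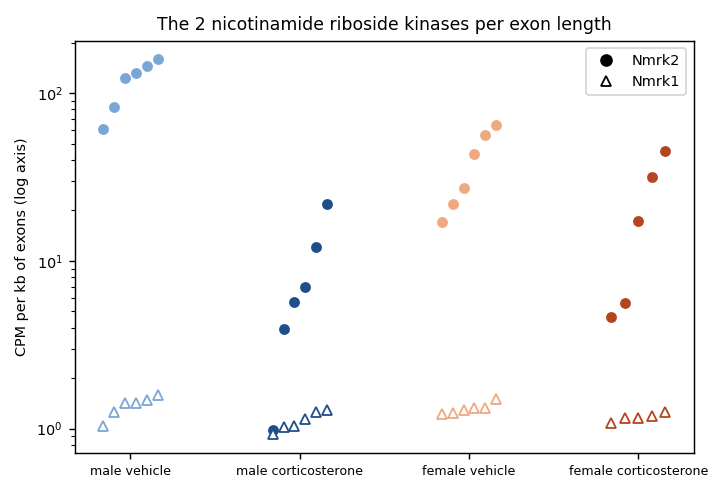
Level of Nmrk2 (filled circles) and Nmrk1 (open triangles) in each of the 23 mice, as CPM per kb of exon on a log axis, by group. Nmrk2 averaged 117 CPM per kb in vehicle males and 8.56 in corticosterone males, while Nmrk1 stayed between means of 1.11 and 1.37 in all 4 groups.

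Nampt (ENSMUSG00000020572, chr12:32819545-32853349, plus strand), the rate-limiting enzyme of salvage from nicotinamide, moved the other way from Nmrk2 in males. It ran from 131 to 183 CPM with a median of 154 in M VEH and from 173 to 216 CPM with a median of 186 in M CORT. The ranges overlapped, since M5 under vehicle lay above M12 and M4 under corticosterone. Nampt rose by 0.29 on the log2 scale in males (SE 0.09, adjusted p = 0.00906), above the vehicle mean in 6 of 6 mice. This call lay at the threshold and was lost in 22 of 33 alternatives, 17 of them fits without 1 mouse, while the log2 fold change stayed between 0.25 and 0.35.

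In females Nampt ran from 116 to 141 CPM under vehicle with a median of 134, and the F CORT mice had 165 (F2), 124 (F4), 149 (F6), 164 (F8) and 144 CPM (F10). All but F4 lay above the vehicle range. The log2 fold change was 0.18 (SE 0.09, adjusted p = 0.150), and it did not differ detectably from that in males (difference 0.12, SE 0.12, adjusted p = 0.531). Nampt was the only 1 of the 9 genes whose sexes did not overlap under corticosterone, where 12.4% of all tested genes did not. Every M CORT mouse lay above every F CORT mouse, with a log2 difference of 0.35 (SE 0.09, adjusted p = 0.00440). That call was lost in 7 of 33 alternatives, among them the fits without F4 (adjusted p = 0.0134), without M10 (adjusted p = 0.0119), without M8 and F10 together (adjusted p = 0.0185) and with the adipocyte covariate (adjusted p = 0.0185).

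Nmnat1 (ENSMUSG00000028992, chr4:149467572-149485202, minus strand), the adenylyl transferase of the nucleus, fell in both sexes. In M VEH it ran from 21.4 to 30.0 CPM with a median of 25, and in M CORT from 14.1 to 19.9 CPM with a median of 16.6, with no overlap. It fell by 0.59 on the log2 scale in males (SE 0.12, adjusted p = 0.000566). In F VEH it ran from 21.4 to 29.0 CPM with a median of 23.9, and the F CORT mice had 15.4 (F2), 21.7 (F4), 13.2 (F6), 20.9 (F8) and 15.4 CPM (F10). Only F4 reached into the vehicle range. The fall of 0.51 on the log2 scale in females (SE 0.13, adjusted p = 0.00538) did not hold without F1, F2, F6, F7, F10 or F11, where its adjusted p lay between 0.0109 and 0.0216. The difference between the sexes in their response was -0.08 (SE 0.17, adjusted p = 0.773).

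Nmnat3 (ENSMUSG00000032456, chr9:98287435-98420438, plus strand), the mitochondrial form, had the lowest adjusted p of the 9 genes in males. It ran from 18.8 to 26.2 CPM in M VEH with a median of 21.3, and from 9.40 to 14 CPM in M CORT with a median of 11.7. The groups did not overlap, and Nmnat3 fell by 0.89 on the log2 scale (SE 0.12, adjusted p = 7.32e-06). In F VEH it ran from 16.3 to 24.4 CPM with a median of 19.2, and the F CORT mice had 13.0 (F2), 16 (F4), 11.1 (F6), 17.7 (F8) and 14.3 CPM (F10). F8 alone lay inside the vehicle range. The female log2 fold change of -0.44 (SE 0.13, adjusted p = 0.0131) missed the threshold in edgeR and passed it in DESeq2 (adjusted p = 0.00467), in limma-voom with quality weights (adjusted p = 0.00171), without F3 (adjusted p = 0.00787) and without F8 (adjusted p = 0.00406). The difference between the sexes in their response was -0.45 (SE 0.17, adjusted p = 0.0819).

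Nnmt (ENSMUSG00000032271, chr9:48591877-48605153, minus strand) and Nadk (ENSMUSG00000029063, chr4:155562378-155591001, plus strand) formed a pair that was high in the same female mice. The F CORT mice had 19.6 (F2), 6.74 (F4), 43.6 (F6), 2.31 (F8) and 19.5 CPM (F10) of Nnmt, against 2.27 to 8.71 CPM with a median of 4.59 in F VEH. They had 68.8 (F2), 38.6 (F4), 102 (F6), 31.1 (F8) and 75.8 CPM (F10) of Nadk, against 24.6 to 44.3 CPM with a median of 30.8 in F VEH. For both genes F2, F6 and F10 stood above every vehicle mouse, and F4 and F8 lay inside the vehicle range.

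Nadk rose by 0.91 on the log2 scale in females (SE 0.22, adjusted p = 0.00483). The call was lost without any of F1, F2, F6, F7, F9, F10 or F11, with a value of 0.65 without F6 (adjusted p = 0.0309), and in the fit of females alone (adjusted p = 0.0532). The log2 fold change of Nnmt was larger, 1.81, but so was its error (SE 0.58, adjusted p = 0.0250), and it missed the threshold. It passed in limma-voom with quality weights (2.08, adjusted p = 0.00465) and without F8 (2.09, adjusted p = 0.00512), and was 1.18 without F6 (adjusted p = 0.152). In males neither passed the threshold. Nnmt had a median of 4.94 CPM in M VEH and 3.28 CPM in M CORT with a log2 fold change of 0.07 (SE 0.56, adjusted p = 0.933), and Nadk had medians of 31.3 and 31.2 CPM with a log2 fold change of 0.07 (SE 0.21, adjusted p = 0.807). The sexes differed in their response by -1.74 for Nnmt (SE 0.81, adjusted p = 0.140) and by -0.84 for Nadk (SE 0.31, adjusted p = 0.0722), neither past the threshold. Under corticosterone itself Nadk was lower in males than in females, at -0.97 on the log2 scale (SE 0.22, adjusted p = 0.00213), and Nnmt had a value of -1.83 (SE 0.58, adjusted p = 0.0168). The call on Nadk was lost without F6 (-0.70, adjusted p = 0.0135) and without M8 and F10 together (-0.92, adjusted p = 0.0117), and its value was -0.49 (adjusted p = 0.00677) with the adipocyte covariate.

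Fat cell RNA moved with both genes. The summed level of 7 adipocyte markers was highest in F6 with 6899 CPM, followed by F2 with 3633 and F10 with 3272, and lower in F4 with 1091 and F8 with 270, so the 3 mice with the most Nnmt and Nadk were the 3 with the most marker RNA. The same sum ran from 282 to 2595 CPM in F VEH, 219 to 1002 in M VEH and 289 to 923 in M CORT. Of the 7 markers 1 was called higher in females and none in males, where 7.40% and 13.2% of all tested genes were. None of the 7 was at 0 in every mouse. With the adipocyte marker score as a covariate, the female log2 fold change of Nnmt was 0.10 (adjusted p = 0.845) and that of Nadk 0.37 (adjusted p = 0.0587). The female value of Nmnat1 was -0.35 (adjusted p = 0.0489) in that fit. Liver RNA was also high in 2 of these mice, with summed levels of 8 hepatocyte markers of 1110 CPM in F6 and 2468 CPM in F10, against 41.0 to 200 CPM in the other F CORT mice and 35.3 to 327 CPM in F VEH. With the hepatocyte marker score as a covariate, the female value was 1.55 for Nnmt (adjusted p = 0.0604) and 0.84 for Nadk (adjusted p = 0.0111). Each score was the mean log2 CPM of its markers, not their summed CPM. The score itself comes from the treated mice, so a fit of this kind also takes away a treatment effect that moves with it.

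**Figure D2:**
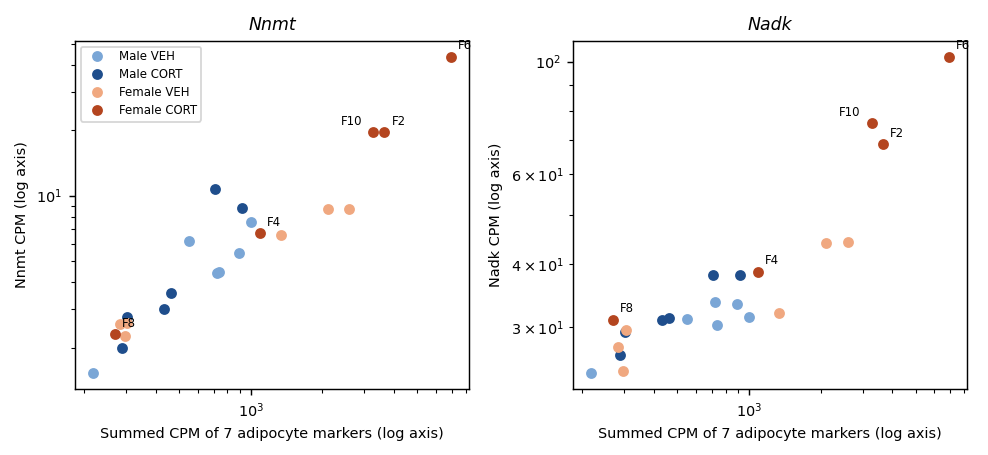
Nnmt (left) and Nadk (right) in CPM against the summed CPM of 7 adipocyte markers, 1 point per mouse, both axes logarithmic, coloured by group with the 5 corticosterone females named. F2, F6 and F10 lie at the upper right of both panels, and F8, with a marker sum of 270 CPM, lies among the lowest mice for Nnmt.

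After the mean of each group was subtracted from log2(CPM + 1), Nnmt and Nadk followed each other over the 23 mice with Pearson's r = 0.932 and Spearman's rho = 0.926, and r = 0.879 without F6 and F8. Nnmt and Nmnat1 had r = -0.739 and rho = -0.720, and r = -0.635 without those mice. For Nmnat1 and Nmnat3 r was 0.613 and rho 0.551, and for Nmrk2 and Nmnat3 r was 0.540 and rho 0.449, the latter falling to r = 0.339 without F6 and M8. These pairs were picked after all pairs of the 9 genes were seen, and both genes of a pair come from the same library and its make-up, so the values are descriptions.

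In M CORT, Nnmt was highest in M8 with 10.8 CPM and in M12 with 8.80 CPM, against 1.99 to 3.56 CPM in the other 4 mice. M8 and M12 also had the highest sums of 8 hepatocyte markers in that group, 2531 and 1482 CPM against 39.3 to 273, and its highest adipocyte sums, 711 and 923 CPM. Without M8 the male log2 fold change of Nnmt was -0.29 in place of 0.07. The part of liver or fat RNA in these 2 mice was not tested.

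Sirt1 (ENSMUSG00000020063, chr10:63319005-63381704, minus strand), the nuclear deacetylase, rose slightly in males. It ran from 6.84 to 8.08 CPM with a median of 7.54 in M VEH and from 7.92 to 12.8 CPM with a median of 10.1 in M CORT. M2 alone of the corticosterone mice lay inside the vehicle range. Sirt1 rose by 0.43 on the log2 scale (SE 0.11, adjusted p = 0.00387), a call lost without M3 (adjusted p = 0.0104), without M8 (0.35, adjusted p = 0.0137) and without M8 and F10 together (adjusted p = 0.0142). In females it ran from 6.39 to 9.75 CPM under vehicle, and the F CORT mice had 8.50 (F2), 9.87 (F4), 9.05 (F6), 6.94 (F8) and 9.34 CPM (F10). The groups overlapped, with a log2 fold change of 0.09 (SE 0.12, adjusted p = 0.628). The sexes differed in their response by 0.35 (SE 0.16, adjusted p = 0.140), not past the threshold.

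Sirt3 (ENSMUSG00000025486, chr7:140863666-140882309, minus strand), the main mitochondrial deacetylase, moved opposite to Sirt1 in males. It ran from 17.7 to 29.3 CPM with a median of 25.2 in M VEH and from 10.9 to 15.7 CPM with a median of 14.3 in M CORT, with no overlap. Sirt3 fell by 0.80 on the log2 scale (SE 0.15, adjusted p = 0.000231). In females it ran from 14.1 to 22.7 CPM under vehicle with a median of 19.4, and the F CORT mice had 11.6 (F2), 14 (F4), 13.2 (F6), 21.1 (F8) and 19.2 CPM (F10). F8 and F10 lay inside the vehicle range. The female log2 fold change was -0.29 (SE 0.16, adjusted p = 0.180). The sexes differed in their response by -0.52 (SE 0.21, adjusted p = 0.104), not past the threshold. Exons of Sirt3 overlap Ric8a by 418 bases and Psmd13 by 342 bases on the opposite strand, and reads were counted by strand.

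**Figure D3:**
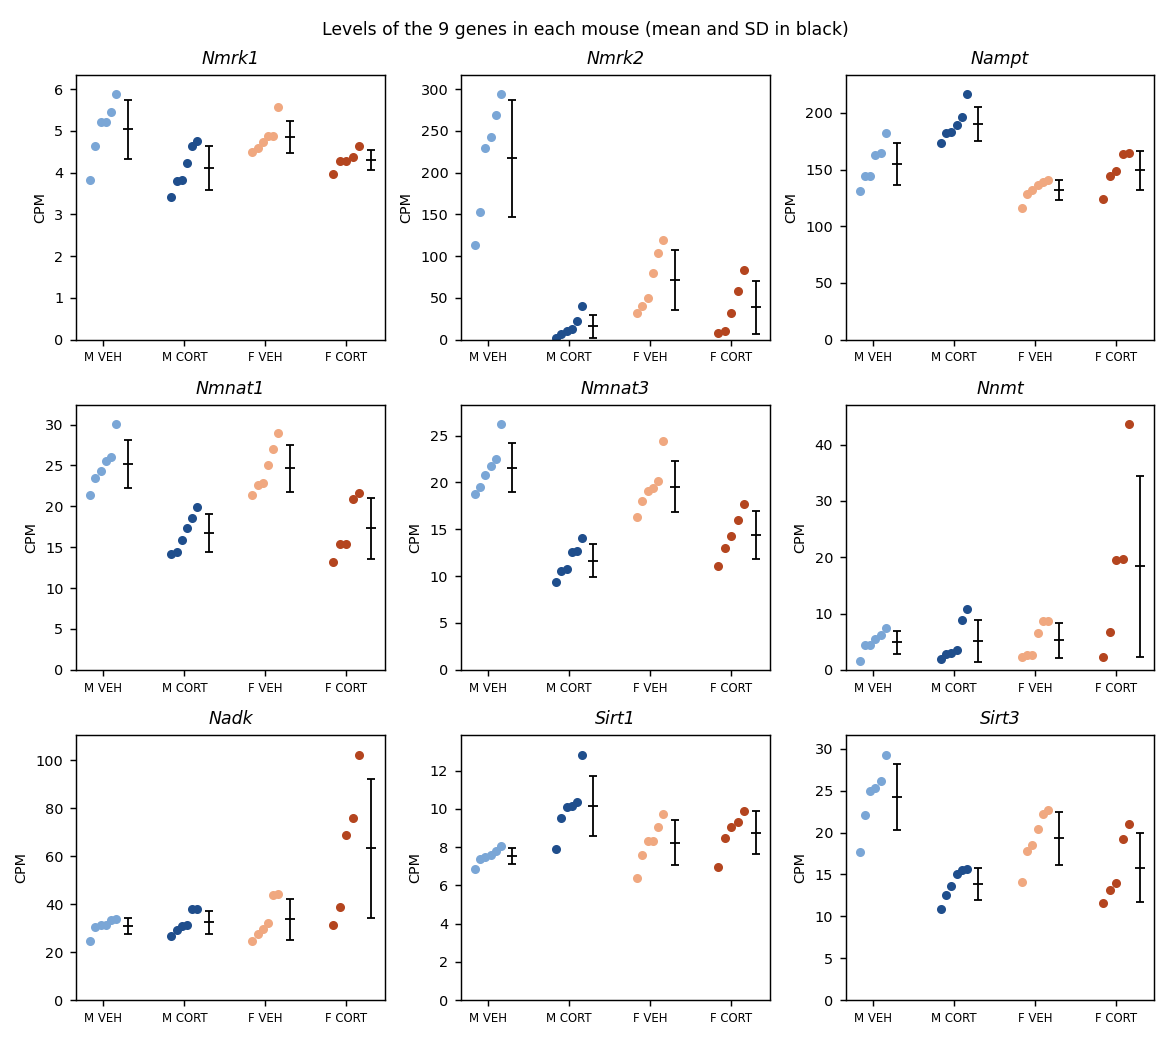
Level of each of the 9 genes in CPM, 1 point per mouse sorted within its group, with the group mean and SD in black beside it (M, male, F, female, VEH, vehicle, CORT, corticosterone). Nmrk2, Nmnat1, Nmnat3 and Sirt3 do not overlap between the male groups, and Nnmt and Nadk have their widest spread in the corticosterone females, with SDs of 16.1 and 29.0 CPM.

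Across the 9 genes, 6 passed the threshold in males, 2 higher (Nampt and Sirt1) and 4 lower (Nmrk2, Nmnat1, Nmnat3 and Sirt3), where 26.3% of all tested genes passed, 13.2% higher and 13.1% lower. The same 4 lower genes did not overlap between the male groups, as 21.9% of all tested genes did not. The median log2 fold change of the 9 was -0.29, and that of all tested genes -0.02. In females 2 of the 9 passed, Nadk higher and Nmnat1 lower, where 13.4% of all tested genes passed, 7.40% higher and 6.0% lower. None of the 9 was free of overlap in females, as 7.72% of all tested genes were. The female medians were -0.17 for the 9 genes and 0.04 for all tested genes.

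**Figure D4:**
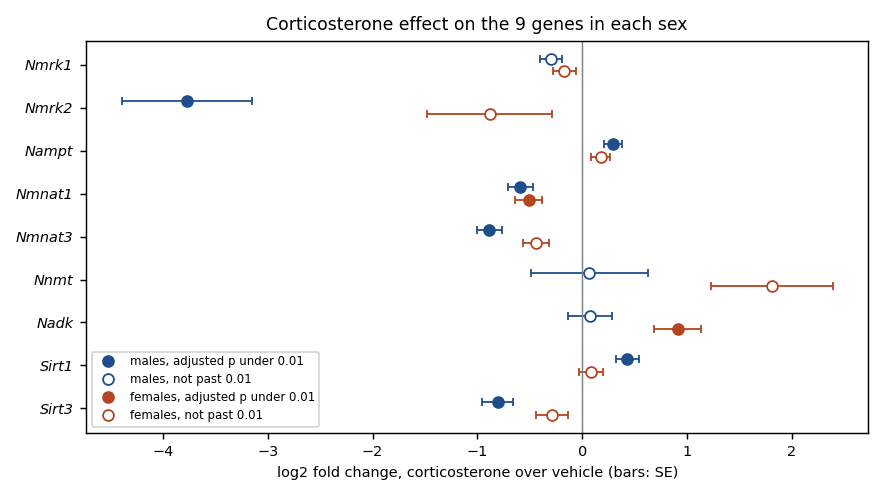
Log2 fold change of corticosterone over vehicle for each of the 9 genes in males (blue) and females (orange), with SE as bars and filled points where the adjusted p was under 0.01. The male value of Nmrk2, -3.77, lies far from the others, and Nnmt and Nadk lie apart in the sexes at 1.81 and 0.91 in females against 0.07 each in males.

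For the difference between the sexes in their response, none of the 9 genes passed in edgeR, where 0.690% of all tested genes passed. At an unadjusted p under 0.05 there were 6 (Nmrk2, Nmnat3, Nnmt, Nadk, Sirt1 and Sirt3), where 32.1% of all tested genes were. DESeq2 called 1, Nmrk2, where it called 6.87% of all tested genes, and limma-voom none, where it called 5.31%. Under vehicle none of the 9 passed between males and females in edgeR, DESeq2 or limma-voom, where 0.958%, 2.18% and 1.43% of all tested genes passed. At an unadjusted p under 0.05 there were 3 (Nmrk2, Nampt and Sirt3), where 13.2% of all tested genes were. Under corticosterone 2 of 9 passed, Nampt higher and Nadk lower in males, where 23.3% of all tested genes passed, and 1 of the 9, Nampt, did not overlap, as 12.4% of all tested genes did not. Each group serves in several of these comparisons, so they are not independent of each other.

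The order of the levels per kb of exon changed with the group. In M VEH it ran from Nmrk2 (mean 117 CPM per kb) and Nampt (30.7) to Nmnat1 (8.28), Nadk (8.2), Nmnat3 (4.31), Sirt3 (4.06), Nnmt (3.12), Sirt1 (1.41) and Nmrk1 (1.37). Nmrk2 and Nampt each stood apart from the next gene, as did Nadk from Nmnat3, while the other neighbours overlapped. In M CORT Nampt led with 37.6 CPM per kb, apart from Nadk (8.64) and Nmrk2 (8.56), which overlapped each other. In F VEH Nmrk2 (38.3) and Nampt (26.1) overlapped at the top, and in F CORT Nampt (29.5), Nmrk2 (20.8), Nadk (16.9) and Nnmt (11.7) each overlapped the next. Nmrk1 was last in all 4 groups, apart from its neighbour Sirt1 in both corticosterone groups and overlapping it in both vehicle groups.

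The wider NAD pathway was read from 33 further genes listed by function, with the same knowledge of results. Of these 32 matched 1 gene ID each, 22 of which passed the filter on low counts. Nnt, the transhydrogenase of the inner mitochondrial membrane, stood under 2 IDs with 1 to 9 counts together and was left out. The untested genes were Nmnat2, Pnp2, Ido1, Ido2, Kynu, Haao, Acmsd, Aadat, Bst1 and Sarm1. In males 5 of 22 passed (22.7%, against 26.3% of all tested genes), 2 higher and 3 lower, with a median log2 fold change of 0.08. In females 3 of 22 passed (13.6%, against 13.4% of all tested genes), all higher, with a median of 0.03. Both shares lay near those of all tested genes.

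The 3 genes called lower in males were Naprt, Kyat1 and Cd38. Naprt, which starts NAD synthesis from nicotinic acid, fell from a mean of 5.15 ± 1.40 to 2.91 ± 0.411 CPM (SD, n = 6 each), by 0.82 on the log2 scale (SE 0.20, adjusted p = 0.00241). Naprt shares 277 exonic bases with Eef1d on the same strand, where reads that fit both are not counted. Kyat1, a kynurenine aminotransferase, fell by 0.41 on the log2 scale (SE 0.09, adjusted p = 0.00107), and Cd38, an enzyme that hydrolyses NAD, fell by 0.80 (SE 0.19, adjusted p = 0.00246) from 6.54 ± 1.51 to 3.76 ± 0.770 CPM. Naprt and Kyat1 did not overlap between the male groups, and Cd38 did. The female log2 fold changes were -0.16 for Naprt (adjusted p = 0.592), -0.33 for Kyat1 (adjusted p = 0.0128) and -0.46 for Cd38 (adjusted p = 0.0949), none past the threshold.

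Aox1, an oxidase that acts on the methylnicotinamide made by Nnmt, was called in both sexes. It rose from 35.0 ± 10 to 67.9 ± 19.3 CPM in males (SD, n = 6 each), by 0.96 on the log2 scale (SE 0.20, adjusted p = 0.000841), and the groups overlapped. In females it rose from 33.9 ± 9.60 CPM (SD, n = 6) to 72.2 ± 12 CPM (SD, n = 5), by 1.09 (SE 0.21, adjusted p = 0.000908), with no overlap.

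Sirt2, the cytosolic sirtuin, rose in males from 101 ± 2.86 to 148 ± 8.89 CPM (SD, n = 6 each), by 0.56 on the log2 scale (SE 0.08, adjusted p = 1.62e-05), with no overlap. Its female log2 fold change was 0.23 and not past the threshold. Of the 5 sirtuins outside the 9 genes, Sirt4, Sirt5, Sirt6 and Sirt7 passed in neither sex. Sirt5 came near it in males, at -0.50 on the log2 scale (SE 0.16, adjusted p = 0.0138). Its male groups did not overlap, as 21.9% of all tested genes did not. Parp3, an ADP-ribosyltransferase, rose in females alone past the threshold, from 82.9 ± 6.31 CPM (SD, n = 6) to 124 ± 16.7 CPM (SD, n = 5), by 0.59 (SE 0.09, adjusted p = 0.000119), with no overlap. Vehicle males already stood above vehicle females for Parp3, at a log2 difference of 0.43 (SE 0.09, adjusted p = 0.00606), the 1 call of the 22 between the vehicle groups, where 0.958% of all tested genes passed. This call was lost in 11 of 33 alternatives, with 8 of them fits without 1 mouse.

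Pnp, which splits nicotinamide riboside into nicotinamide, rose in females by 1.29 on the log2 scale (SE 0.29, adjusted p = 0.00296), from 3.57 ± 1.36 CPM (SD, n = 6) to 8.74 ± 4.49 CPM (SD, n = 5), with overlap and 4 of 5 mice above the vehicle mean. Pnp was highest in F6 (13.8 CPM), F10 (11.6) and F2 (10.1), the 3 mice with the most adipocyte marker RNA, against 4.96 CPM in F4 and 3.20 in F8. Its female value was 0.60 (adjusted p = 0.0672) with the adipocyte covariate, and the call was also lost without F6 (1.05, adjusted p = 0.0167) and without F10 (1.13, adjusted p = 0.0124). Pnp2 is a near-identical copy of Pnp, and Gm49342 shares 718 exonic bases with Pnp on the same strand, so the division of reads among them is uncertain. Between the corticosterone groups 4 of 22 passed (18.2%, against 23.3% of all tested genes). Sirt2 (0.39, adjusted p = 0.00149) and Parp1 (0.40, adjusted p = 0.00738) were higher in males, and Naprt (-0.81, adjusted p = 0.00419) and Pnp (-1.03, adjusted p = 0.00879) were lower, as log2 differences. The call was lost in 19 of 33 alternatives for Pnp, 9 each for Naprt and Parp1 and 1 for Sirt2. None of the 22 passed for the difference in response in edgeR, where 0.690% of all tested genes passed. At an unadjusted p under 0.05 there were 5, where 32.1% of all tested genes were. DESeq2 and limma-voom called 1 each, where they called 6.87% and 5.31% of all tested genes.

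**Figure D5:**
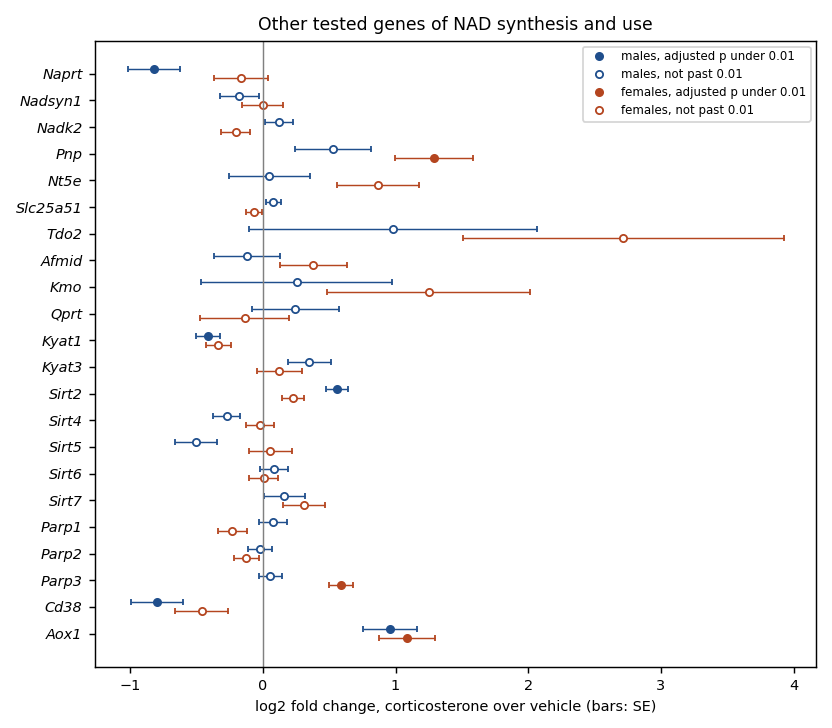
Log2 fold change of corticosterone over vehicle for the 22 tested genes of NAD synthesis and use outside the 9, in males (blue) and females (orange), with SE as bars and filled points where the adjusted p was under 0.01. Aox1 is filled in both sexes at 0.96 and 1.09, Naprt, Kyat1, Cd38 and Sirt2 in males alone, and Pnp and Parp3 in females alone.

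The genes whose log2 CPM over the 23 mice was most like that of 3 of the 9 genes were taken from 13017 tested genes outside both lists. For Nmrk2 they were Glrx (r = 0.927), Akr1b10 (0.919) and Kcnj8 (0.916), and with the group means subtracted Kcnj8 (0.843), Glrx (0.819) and Oxct1 (0.804). For Nampt they were Ric8b (0.893), Ddx59 (0.884) and Pold2 (0.879), and with the means subtracted Rps19-ps6 (0.793), a pseudogene whose reads may belong to its parent gene, Uxt (0.771) and Zbtb8os (0.762). For Nnmt they were Cebpa (0.975), Pde3b (0.972) and Slc1a5 (0.970), and with the means subtracted Slc1a5 (0.970), Cebpa (0.970) and Cdo1 (0.968). Cebpa and Pde3b are known from fat cells, whose marker sums are given above. Such values were picked as the highest of many and share the library, depth and make-up of each sample.

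Markers of other cell types were measured in all mice. The 9 skeletal muscle markers were all tested and summed to between 79186 and 220639 CPM, as fits the labelled tissue. The 6 fibroblast markers summed to between 777 and 1188 CPM in M VEH and between 317 and 476 CPM in M CORT, and 4 of them were called lower in males and 2 in females. Of the 5 erythrocyte markers 4 were called higher in both sexes, and 1 of 9 skeletal muscle and 1 of 4 tested denervation markers in males. Of all tested genes 13.2% were called higher and 13.1% lower in males, and 7.40% and 6.0% in females. None of the slow fiber, hepatocyte, endothelial or macrophage markers was called, which is not an absence of change. The median log2 fold changes in males and females were -1.21 and -0.28 for slow fiber and 1.16 and 2.04 for hepatocyte markers. For endothelial markers they were -0.43 and -0.03, and for macrophage markers -0.68 and 0.58. The part of fibroblast or blood RNA in the 9 genes was not tested. The labels call the mice separate samples but say nothing of litters or cages, and the p-values rest on the spread between these mice.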

How the data were processed

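Libraries were stranded mRNA, sequenced as read pairs of quadriceps RNA from 23 mice. The authors aligned reads to mm10 with STAR 2.7.3a and counted them with HTSeq 0.12.4 on Ensembl 97, by strand, and deposited raw counts per gene and mouse. The 5 summary entries, 10.7% to 15.3% of the read pairs, were left out. Positions and exon lengths came from GENCODE M21 (GRCm38). No replicates agreed within sampling noise (lowest chi-square per degree of freedom 15.0).

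The counts were tested with edgeR 4.0.16 (quasi-likelihood, TMM scaling, factors from 0.832 to 1.21) in R 4.3.3, in 1 model with 4 group means. A gene entered (13049 in all) when 4 or more mice of a group had over 20 normalized counts, and calls rest on Benjamini-Hochberg adjusted p-values across those genes, under 0.01. CPM values are TMM-scaled, and log2 CPM used a prior count of 1. The 3 counts taken as a floor are at most 0.166 CPM. Alternatives used DESeq2 1.42.0, limma 3.58.1 (voom), other filters (15045 and 31922 genes) and scaling, each sex alone, a limit of 1 on the log2 fold change, a block, marker covariates, and fits without M8 and F10 or without 1 mouse. The scripts were tested on simulated data.

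The 9 genes, the lists and the alternatives were chosen with earlier results of these data known. Named genes are the 9, the further NAD genes called in any comparison or not tested, and the 3 most correlated genes for Nmrk2, Nampt and Nnmt, and any other was chosen after its values were seen. Promoter sequences are from RefSeq. Depth limits low genes most, and the errors given are spreads between mice.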

Additional observations from a re-analysis of the deposited data

Results flagged for a closer look

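Dixon's test for the most distant sample was run on 36 sets of values, the 9 genes in 4 groups, and marked 2, where chance alone would mark about 1 in 20 sets. Nadk was lowest among the vehicle males in M7, with 24.4 CPM and a gap to the next mouse of 0.637 of the range of the group. M7 also had the least adipocyte marker RNA of all mice, 219 CPM. Nmrk1 was highest among the vehicle females in F9, with 5.57 CPM and a gap of 0.629 of the range.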

How the results depend on the processing

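Of 891 values of the 9 genes over the alternatives, 822 kept their direction and their side of the threshold, 52 fell below it, 8 passed it and 9 changed sign. All changes of sign were in values near 0 in the main fit, 0.07 for Nnmt in males and -0.08 for the sex difference in response of Nmnat1. The male value of Nnmt was -0.21 in limma-voom, -0.28 without M8 and F10, -0.054 with the adipocyte and -0.25 with the hepatocyte covariate, and from -0.29 to 0.24 leaving out 1 mouse. The sex difference in response of Nmnat1 was 0.084 in limma-voom and from -0.15 to 0.014 leaving out 1 mouse. The cause was not tested.

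The counts of calls below come from fits that differ in tool, gene set or mice. The share of all tested genes called in each fit is not given here, so a changed count is not a result about the listed genes. Of the 9 genes, 6 were called in males and 1 with a log2 fold change beyond 1, by its construction, and 4 to 7 leaving out 1 mouse. In females 2 were called, 4 in limma-voom, 1 without a filter or with the hepatocyte covariate, and 0 with each sex alone, beyond a log2 fold change of 1, without M8 and F10, or with the adipocyte covariate. Leaving out 1 mouse gave 0 to 4, with 0 without F1, F2, F6, F7, F10 or F11, 1 without F9 and 4 without F8. Nadk fell below the threshold in 12 of 33 alternatives and Nmnat1 in 11. The difference between the sexes in their response had 0 calls and 1 in DESeq2. Between the corticosterone groups 2 were called, 1 with the adipocyte covariate, 0 beyond a log2 fold change of 1 or without M8 and F10, and 1 to 3 leaving out 1 mouse (1 without F6 or M10).

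Of the 22 further NAD genes, 5 were called in males and 0 beyond a log2 fold change of 1. The difference between the sexes in their response had 0 calls, 1 in DESeq2 and in limma-voom, and 0 to 2 leaving out 1 mouse (2 without F4, 1 without F8). Between the vehicle groups 1 was called, 0 without a filter or beyond a log2 fold change of 1, and 0 to 1 leaving out 1 mouse (0 without F1, F3, F5, F9, M1, M3, M5 or M11). Between the corticosterone groups 4 were called, 2 without a filter or in limma-voom, 1 beyond a log2 fold change of 1, without M8 and F10 or with the adipocyte covariate, and 1 to 4 leaving out 1 mouse (1 without F6, F10 or M2, 2 without M4 or M8).

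Replicate numbers are shared between the sexes only. Over 11 same-numbered pairs the correlation of deviations ran from -0.377 to 0.477, over 0.1 in 7, and 4 mice correlated best with their own number. The vehicle pairs ran from 0.085 to 0.477 and the corticosterone pairs from -0.377 to 0.242. So few pairs cannot show whether the numbers pair mice. With the replicate number as a block, 0 of the 9 and 2 of the 22 genes were called between the corticosterone groups. Between the vehicle groups 0 and 0 were called, and 0 and 0 for the difference between the sexes in their response. The share of all tested genes called in the block fit is not given here, so these counts are not a result about the listed genes.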
